A study of Mus musculus with 4 samples.

Results

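A set of 10 genes that are widely used as markers of brain border macrophages and of alternative macrophage activation was examined in cultured microglia: Mrc1, Cd163, Lyve1, F13a1, Pf4, Ms4a7, Cbr2, Folr2, Clec10a and Stab1. These 10 genes were listed by symbol, with earlier results of these data known, and all were present among the 54532 annotated genes of the count tables. Of them, 9 were among the 13811 protein-coding genes that reached 10 counts summed over the 4 libraries and entered the tests. Cd163 reached 7 counts in all and was not tested.

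Microglia were grown from the cortex of newborn male CD1 mouse pups as mixed glia, in medium to which GM-CSF was added once the astrocytes had formed a layer, and were left behind when that layer was removed with trypsin. The microglia of all 4 libraries were then held in serum-free medium with IL-34, TGFβ2, GM-CSF and cholesterol, factors that support microglial survival. They were exposed for 24 h either to 1 µM EGCG (epigallocatechin gallate, the main catechin of green tea) or to the vehicle, DMSO being the solvent of the flavonoid stocks, with 2 libraries per group, numbered replicate 1 and replicate 2. Poly-A RNA was sequenced by a directional protocol. The comparison of EGCG with vehicle asked whether the flavanol altered the transcriptome of microglia. The vehicle and EGCG libraries of a replicate were deposited together in a table of their own, so culture and processing cannot be told apart between replicates. The labels call the replicates biological but do not say which animals or cultures each library came from, and the P values measure only the spread between these libraries.

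Border macrophages line the meninges, the perivascular spaces and the choroid plexus, whereas microglia occupy the parenchyma, and the scavenger receptors and lectins listed here are high in the former and low in resting microglia. Several of the same receptors are raised when macrophages meet interleukin-4 or glucocorticoids, the state termed alternative activation. PU.1, the lineage factor of all macrophages, and MAF are transcription factors on which the macrophage programme depends.

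Sequences upstream of the 4 genes that proved abundant are shown because Mrc1, Ms4a7 and Stab1 differed between the replicates in one direction and Pf4 in the other. Each run holds the 250 bases before the transcription start, 5′ to 3′ on the strand of the gene, from RefSeq on GRCm38.p6. Capitals mark matches to GAGGAAGT, a PU.1 site, or to TGCTGA, a part of the MAF recognition element, both searched on both strands.
Pf4 (chr5:90772185-90772434, plus strand): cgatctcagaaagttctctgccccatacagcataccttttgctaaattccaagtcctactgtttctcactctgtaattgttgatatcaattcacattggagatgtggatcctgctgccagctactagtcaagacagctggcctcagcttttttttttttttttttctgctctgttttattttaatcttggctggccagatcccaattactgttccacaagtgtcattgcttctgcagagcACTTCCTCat
Stab1 (chr14:31168642-31168891, minus strand): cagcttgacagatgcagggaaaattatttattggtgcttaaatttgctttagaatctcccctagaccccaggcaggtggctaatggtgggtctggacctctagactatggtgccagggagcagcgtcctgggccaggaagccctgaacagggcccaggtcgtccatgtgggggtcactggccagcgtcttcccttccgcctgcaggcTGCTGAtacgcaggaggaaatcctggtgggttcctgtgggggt
Mrc1 (chr2:14229164-14229413, plus strand): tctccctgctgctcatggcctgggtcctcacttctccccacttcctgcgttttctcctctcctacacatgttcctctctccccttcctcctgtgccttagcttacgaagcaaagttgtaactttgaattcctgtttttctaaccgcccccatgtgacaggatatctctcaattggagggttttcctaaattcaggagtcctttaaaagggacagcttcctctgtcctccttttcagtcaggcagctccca
Ms4a7 (chr19:11336147-11336396, minus strand): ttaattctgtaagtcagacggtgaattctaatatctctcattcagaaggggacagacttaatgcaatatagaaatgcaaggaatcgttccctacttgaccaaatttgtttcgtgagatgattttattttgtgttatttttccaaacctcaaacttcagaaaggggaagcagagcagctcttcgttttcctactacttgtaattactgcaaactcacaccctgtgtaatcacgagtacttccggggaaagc
The Pf4 window held the PU.1 letters on the opposite strand, from 10 to 3 bases before the start, where the run reads ACTTCCTC. The Stab1 window held the MAF letters from 43 to 38 bases before its start. The windows of Mrc1 and Ms4a7 held neither. Among 32851 RefSeq windows of this length, 2.44% held GAGGAAGT and 16.1% held TGCTGA, and of the 11 windows that belong to 8 of the 10 genes, 1 and 3 did. The 2 further TGCTGA matches were in both windows of Folr2. The TATA motif, TATAAA, was in 12.4% of all windows and in 0 of these 11. The 2 motifs in capitals do not overlap one another, and a match is a description of the letters only. Windows of Lyve1 and Clec10a were not analysed here.

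The vehicle and EGCG libraries held 33805071 and 34300679 counts in replicate 1 and 36307930 and 54970300 in replicate 2. A count of 3, taken as the floor, corresponded to between 0.0544 and 0.0936 CPM (counts scaled to library size, on TMM-scaled protein-coding totals), and this floor and the counting intervals given below cover counting error only. General macrophage transcripts were abundant: all 10 listed genes were above 3 counts, they summed to between 12330 and 14760 CPM, and Ctss, Tyrobp and Cd68 were highest per gene length. Of 14 genes listed for parenchymal microglia, 12 were above 3 counts, whereas Siglech and Slc2a5 had at most 3 counts in every library. Csf1r and Fcrls were among the highest by their mean. Csf1r is also on the general macrophage list, and Fcrls averaged 97.1 CPM in replicate 1 and 680.6 CPM in replicate 2.

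The 10 genes did not form one block of expression. Pf4, Ms4a7, Mrc1 and Stab1 were above 10 RPKM (counts scaled to gene length and library size, comparable between genes) in every library, while the other 6 were below 2 RPKM in every library. The abundant 4 carried between 99.5% and 99.6% of the counts of the 10 genes in each library. The plot of levels shows this gap, so these cultures did not express the set as a whole, and its genes are named one by one below.

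**Figure D1:**
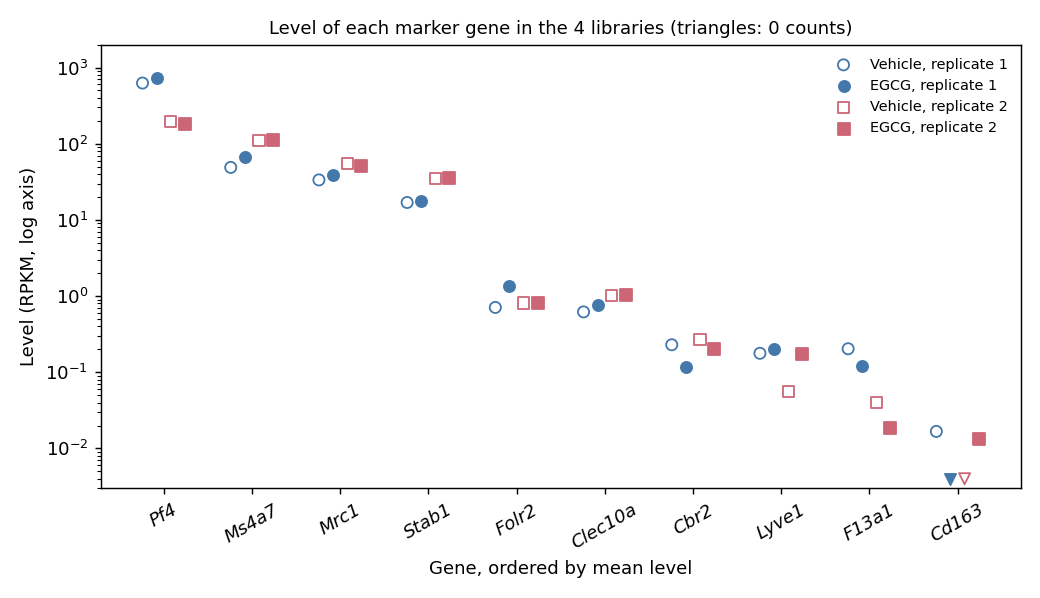
Level of each of the 10 marker genes in RPKM (log axis) in the 4 libraries; open symbols are vehicle, filled symbols EGCG, circles replicate 1, squares replicate 2 and triangles libraries with 0 counts. Pf4, Ms4a7, Mrc1 and Stab1 lie above 10 RPKM and the other 6 genes below 2 RPKM, and circles and squares are further apart than open and filled symbols for the 4 abundant genes.

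Among the secreted and enzymatic products, Pf4, which encodes the platelet factor 4 chemokine CXCL4, was the most abundant by far. Its level in replicate 1 was 626 RPKM with vehicle and 721 RPKM with EGCG, against 198 RPKM and 180 RPKM in replicate 2. Both libraries of replicate 1 were thus above both of replicate 2, and the treatments overlapped. By its mean over the 4 libraries, Pf4 ranked 67th among the 13811 tested genes. F13a1, the A subunit of coagulation factor XIII, had 45 and 26 counts in the vehicle and EGCG libraries of replicate 1 and 10 and 7 counts in those of replicate 2. Its rank was 12234th, and again both libraries of replicate 1 were the higher ones. Cbr2, a carbonyl reductase, had 10 and 5 counts in replicate 1 and 13 and 15 in replicate 2, in the same order of treatments. Relative to depth the vehicle library was the higher one in each replicate, at 0.305 against 0.156 CPM and at 0.355 against 0.272 CPM. Each of these counts has a wide exact Poisson interval, from 1.62 to 11.7 for the 5 counts of EGCG replicate 1.

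Ms4a7, a membrane protein of the MS4A family, ranked 500th. In replicate 1 it was at 48.9 RPKM with vehicle and 66.8 with EGCG, and in replicate 2 at 111.5 and 110.3 RPKM. Replicate 2 was higher than replicate 1 in both treatments, and the EGCG and vehicle libraries of replicate 2 were nearly level.

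Of the receptors, only Mrc1 and Stab1 were abundant. Mrc1, the mannose receptor CD206 and the usual marker of both states named above, was at 33.5 RPKM with vehicle and 38.4 with EGCG in replicate 1 and at 55.5 and 51.3 RPKM in replicate 2, and ranked 961st. Stab1, the scavenger receptor stabilin-1, was at 16.9 and 17.7 RPKM in replicate 1 and at 35.2 and 35.4 RPKM in replicate 2, in the same order of treatments, and ranked 1751st. In both genes the replicates were apart and the treatments overlapped. The microRNA gene Mir511, in an intron of Mrc1, had 0 counts in every library of this poly-A protocol.

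The other receptors were scarce. Clec10a, the galactose-type lectin MGL1, had 59 and 72 counts in the vehicle and EGCG libraries of replicate 1 and 107 and 163 counts in those of replicate 2. Folr2, the folate receptor β, had 36 and 68 counts in replicate 1 and 46 and 69 in replicate 2, in the same order. In CPM, Clec10a was higher in both libraries of replicate 2, whereas for Folr2 only EGCG replicate 1, at 2.12 CPM, stood above the others, which lay between 1.10 and 1.25 CPM. Lyve1, a hyaluronan receptor of lymphatic vessels and perivascular macrophages, had 17 and 19 counts in replicate 1 and 6 and 28 in replicate 2. The lowest library of Lyve1 was Vehicle replicate 2, whose 6 counts have an exact Poisson interval of 2.20 to 13.1. Cd163, the haemoglobin scavenger receptor, had 3 and 0 counts in replicate 1 and 0 and 4 in replicate 2, at or near the floor in all.

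The order of levels per length was Pf4, Ms4a7, Mrc1 and Stab1 within each of the 4 libraries. Pf4 exceeded Ms4a7 in all libraries with no overlap of their ranges, but the margin ran from 12.8-fold in Vehicle replicate 1 to 1.63-fold in EGCG replicate 2. The ranges of Ms4a7 and Mrc1 overlapped, as did those of Mrc1 and Stab1. A gap from 16.9 to 1.37 RPKM separated Stab1 from the highest library of the scarce genes. Folr2 and Clec10a overlapped one another, and so did Cbr2, Lyve1 and F13a1.

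Some of these counts are uncertain because other genes share sequence or position, and the strand setting and the handling of reads with several matches are not given in the sources used here. Clec10a and its paralogue Mgl2 are 98.3% identical over 240 bases, and Mgl2 had between 10 and 19 counts. Folr2 is overlapped on the opposite strand by Gm10602, which had between 97 and 143 counts, more than Folr2 in every library. Stab1 overlaps Nt5dc2 on the opposite strand, with between 752 and 1857 counts.

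No difference between EGCG and vehicle was detected in any of the 9 tested genes at an adjusted P under 0.1, by edgeR or DESeq2, with or without the replicate term. Between EGCG and vehicle, 0 of 9 passed an unadjusted P under 0.05 in the edgeR quasi-likelihood test, in which 0.116% of all 13811 genes did. DESeq2 without the replicate term gave 0 of 9 too. With edgeR and the replicate block the count was 0 of 9, against 3.21% of all genes, and with the block in DESeq2 it was 1 of 9, against 1.11% of all genes. That 1 gene was Ms4a7, whose log2 difference of 0.21 ± 0.098 (SE) had an unadjusted P of 0.0338 and an adjusted P of 1.00 in DESeq2. In edgeR with the block Ms4a7 differed by 0.21 ± 0.11, with an unadjusted P of 0.117. The median log2 difference of the 9 genes was 0.04 with the block in edgeR, beside 0.015 over all genes.

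The errors of the abundant genes were smaller with the block. Without it the 95% intervals of EGCG against vehicle ran from 0.534-fold to 1.90-fold for Mrc1, from 0.364-fold to 2.85-fold for Stab1, from 0.411-fold to 2.97-fold for Ms4a7 and from 0.188-fold to 6.36-fold for Pf4. For Mrc1 the log2 difference was 0.01 ± 0.33 (SE) without and 0.04 ± 0.083 with the block, and the interval of the latter ran from 0.888-fold to 1.19-fold. Stab1 was at 0.03 ± 0.049 with the block and an interval of 0.940-fold to 1.12-fold. Pf4 gave 0.04 ± 0.089 and 0.878-fold to 1.20-fold, and Ms4a7 0.950-fold to 1.42-fold. The intervals of the abundant genes were thus narrow only in the fit with the block. The scarce genes had wide intervals even with it, from 0.584-fold to 5.58-fold for Lyve1 and from 0.223-fold to 1.30-fold for F13a1. With the block, Clec10a differed by 0.16 ± 0.23, Folr2 by 0.47 ± 0.37 and Cbr2 by -0.63 ± 0.68 on the log2 scale.

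Within the replicates the EGCG difference was not steady in sign. The log2 difference of Mrc1 was 0.20 in replicate 1 and -0.11 in replicate 2. Pf4 gave 0.20 and -0.13, Ms4a7 0.45 and -0.015, and Folr2 0.92 and -0.0047. The direction was opposite in these 4 genes and the same in the other 5, which were Stab1, Clec10a and Lyve1 on the higher side in EGCG and F13a1 and Cbr2 on the lower. Over all tested genes the sign was the same in 50.6%. Of the 9 genes, only Cbr2 had EGCG libraries that did not overlap the vehicle libraries, where 11.9% of all genes had this.

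**Figure D2:**
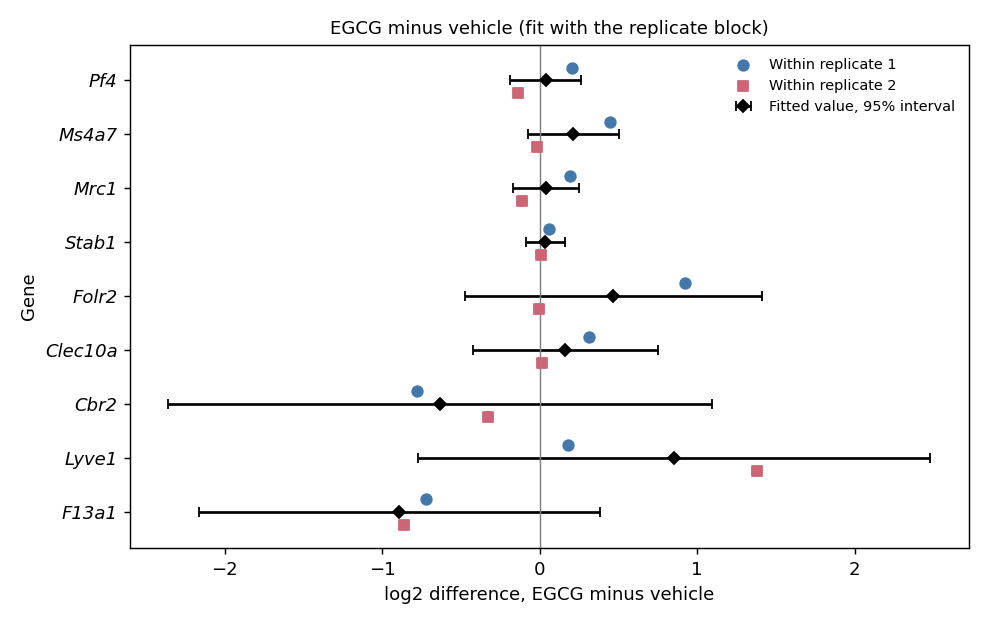
EGCG minus vehicle, as log2 difference, of the 9 tested genes; circles are the difference within replicate 1, squares within replicate 2, and diamonds with bars the edgeR value with the replicate block and its 95% interval. Every interval includes 0, and the intervals of Pf4, Ms4a7, Mrc1 and Stab1 are the narrow ones.

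Most listed transcripts of stromal cells were lower with EGCG in replicate 1, although Pdgfra had 122 counts with vehicle and 141 with EGCG there. The 9 genes of the fibroblast and mural list summed to 436.5 CPM with vehicle and 6.40 CPM with EGCG in replicate 1 and to 163.7 and 184.0 CPM in replicate 2, and 8 of the 9 were above 3 counts. Col1a1, the highest per length, had 3962 and 4 counts in replicate 1 and 1344 and 2040 in replicate 2. The part of this difference in the EGCG values of the marker genes was not tested. In bulk RNA, fewer cells of a type and less RNA per cell cannot be told apart.

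The replicates differed far more than the treatments. Between replicate 2 and replicate 1, 6 of the 9 genes passed an unadjusted P under 0.05 in edgeR, 4 of them higher and 2 lower in replicate 2, and the same 6 passed an adjusted P under 0.1. Over all genes 55.5% passed the unadjusted threshold, 28.5% higher and 27% lower, and 56.7% passed the adjusted one, so that a share of this size is close to that of any gene. Groups without overlap were seen in 7 of the 9 genes and in 76.5% of all genes. The pair of libraries within a replicate may come from 1 culture, and the errors below then describe the spread within it.

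Stab1 was 2.04-fold higher in replicate 2, with a log2 difference of 1.03 ± 0.052 (SE) and an adjusted P of 1.7e-05 in edgeR. Ms4a7 was 1.92-fold higher (0.94 ± 0.13, adjusted P of 0.0012 in edgeR) and Mrc1 1.49-fold higher (0.57 ± 0.078, adjusted P of 0.0011 in edgeR). Clec10a was 1.45-fold higher at 0.54 ± 0.22, with an adjusted P of 0.080 in edgeR, and this call was lost under 6 of 14 alternatives. Pf4 fell by 1.84 ± 0.085 on the log2 scale, a level 3.57-fold lower in replicate 2 (adjusted P of 1.2e-05 in edgeR). F13a1 fell by 2.48 ± 0.57, or 5.6-fold, with an adjusted P of 0.0106 in edgeR. The other genes did not pass, with log2 differences of 0.42 ± 0.64 for Cbr2, -0.36 ± 0.37 for Folr2 and -0.68 ± 0.63 for Lyve1.

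The replicate difference was of one sign in vehicle and in EGCG libraries for 8 of the 9 genes, where 82.9% of all genes were. For Stab1 it was 1.05 in vehicle and 1.00 in EGCG, and for Pf4 -1.66 and -2.00. Ms4a7 gave 1.19 and 0.72, and Mrc1 0.73 and 0.42. Folr2 was the exception, at 0.19 in vehicle and -0.74 in EGCG. The ratio of Pf4 to Stab1 per length was 36.9 and 40.8 in the vehicle and EGCG libraries of replicate 1 but 5.61 and 5.08 in those of replicate 2.

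**Figure D3:**
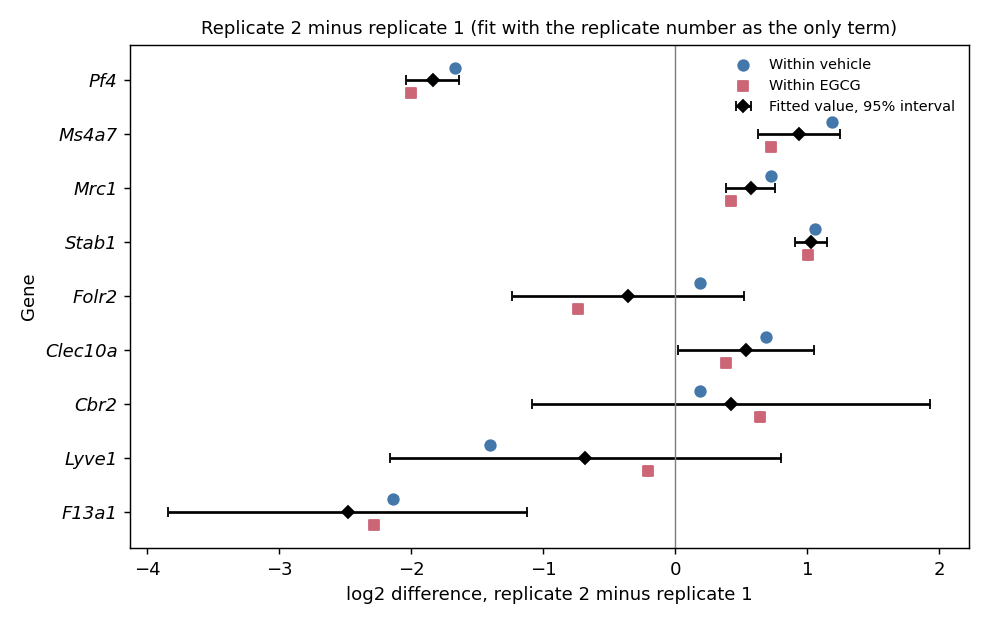
Replicate 2 minus replicate 1, as log2 difference, of the 9 tested genes; circles are the difference within vehicle, squares within EGCG, and diamonds with bars the edgeR value with the replicate number as the only term and its 95% interval. Stab1, Ms4a7, Mrc1 and Clec10a lie above 0, Pf4 and F13a1 below, and the intervals of Folr2, Cbr2 and Lyve1 include 0.

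Scaling to the summed counts of the pan-macrophage genes moved the median of all genes to 0.19 from -0.0027 in this comparison. Of the called genes, 72.0% were then higher in replicate 2, against 51.4% before. This scaling leans on Ctss, at 7470 and 7929 CPM of sums of 13760 and 14760 CPM in replicate 1. In replicate 2, Ctss was at 4410 and 4412 CPM of 12330 and 12490 CPM. Before the scaling, 4 of the 9 tested genes were higher and 2 lower in replicate 2 at an unadjusted P under 0.05 in edgeR, beside 28.5% and 27% of all genes. Under that scaling Stab1, Ms4a7, Mrc1 and Clec10a were again called higher and Pf4 and F13a1 lower, at both thresholds, which 60.2% (unadjusted) and 62.1% (adjusted) of all genes passed. To be read against the shifted median, the log2 differences were then 1.23 for Stab1, 1.15 for Ms4a7, 0.77 for Mrc1, 0.74 for Clec10a, -1.63 for Pf4 and -2.29 for F13a1.

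Markers of other cells that also use these genes were examined beside them. Pf4 is a product of megakaryocytes and platelets, and 5 of the 7 genes of that list were above 3 counts in some library. The list summed to between 8.21 and 10.2 CPM in replicate 1 and between 4.84 and 6.58 CPM in replicate 2. Ppbp, its highest gene, had between 132 and 185 counts in each library, and was lower in replicate 2 relative to depth. The list sum thus moved in the direction of Pf4. Of its 5 tested genes, Ppbp and Treml1 passed an unadjusted P under 0.05 in edgeR with log2 differences of -0.77 ± 0.20 and -0.69 ± 0.26, and Itga2b and Gp6 were at -1.25 ± 0.54 and -2.38 ± 1.30 without passing. Gp9 went the other way and passed as well, as the 1 gene of the list called higher in replicate 2. It had 0 counts in both libraries of replicate 1 and 18 and 12 in replicate 2. Gp1ba had at most 1 count in any library. The part of this list in the Pf4 result was not tested. F13a1 is expressed by monocytes, and that list of 6 genes summed to 53.4 and 52.6 CPM in replicate 1 and 8.57 and 7.12 CPM in replicate 2, in the same direction as F13a1. Its highest gene, Ly6c2, made up 40.2 and 43.4 CPM of the sums in replicate 1 and had 1319 and 1390 counts there, against 39 and 19 in replicate 2. Of the 6 tested genes of the list, 3 were lower in replicate 2 at an unadjusted P under 0.05 in edgeR, 0 were higher and 3 did not pass. Vcan did not follow the sum, at 8.20 and 1.22 CPM in replicate 1 and 5.07 and 4.48 CPM in replicate 2. All 6 monocyte genes were above 3 counts in some library, and their part in the F13a1 result was not tested.

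Stab1 and Lyve1 are also expressed by sinusoidal and lymphatic endothelium. The 10 endothelial genes summed to between 36.7 and 47.9 CPM with no split by replicate, 7 of them were above 3 counts, and Pdpn, which is not restricted to endothelium, was highest. Its members did differ between replicates in edgeR, in opposite directions: of 7 tested, Pecam1 and Prox1 were higher in replicate 2 and Pdpn, Kdr and Flt4 lower at an unadjusted P under 0.05, with a median log2 difference of -0.79. Clec10a and Mrc1 mark dendritic cells as well, and that list of 7 genes summed to 710 and 712 CPM in replicate 1 and 575 and 627 CPM in replicate 2, opposite to Clec10a and Mrc1. Itgax, which macrophages also express, alone was at 700.8 and 702.3 CPM in replicate 1 and 568.8 and 620.8 CPM in replicate 2. The sum therefore describes mainly Itgax. Of the remaining lists, oligodendrocyte lineage genes summed to between 111.5 and 147.7 CPM with Mbp highest, astrocyte genes to between 12.5 and 17.7 CPM with Aldh1l1 highest, and mast cell and neutrophil genes, of which 6 of 7 had at most 3 counts, to between 2.86 and 12.8 CPM with S100a8 highest. The part of these cells in the values of the marker genes was not tested.

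**Figure D4:**
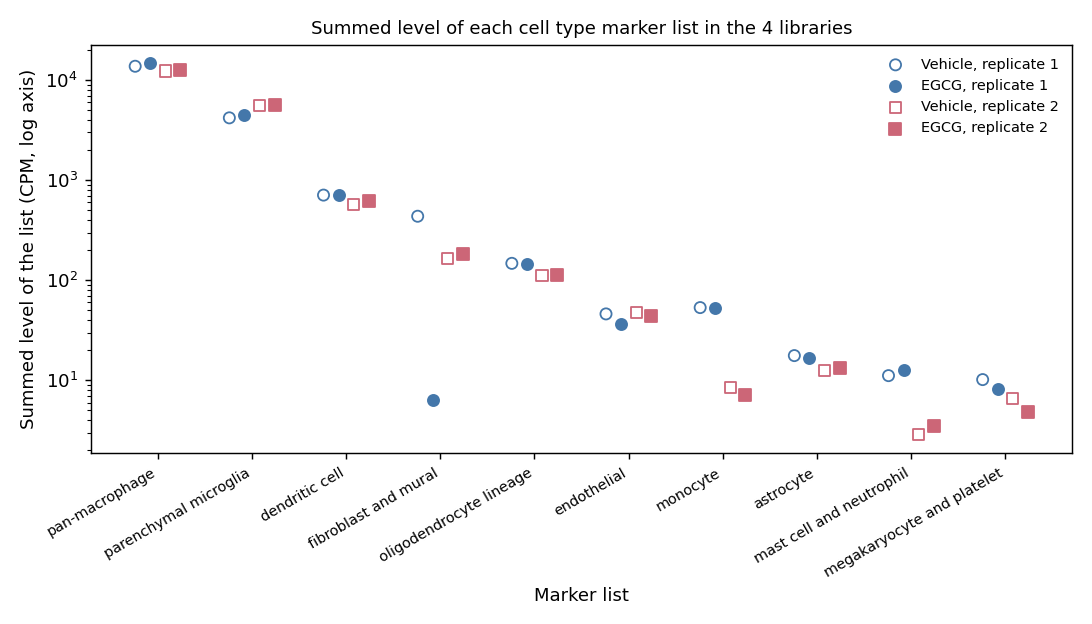
Summed CPM (log axis) of each cell type marker list in the 4 libraries; open symbols are vehicle, filled symbols EGCG, circles replicate 1 and squares replicate 2. The fibroblast and mural list drops to 6.40 CPM in EGCG replicate 1, and the monocyte list lies above 50 CPM in replicate 1 and below 10 CPM in replicate 2.

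Other genes of the same programmes were read from lists of 30 further border macrophage markers and 27 further genes of alternative activation, of which 28 and 24 were tested (Mgl2 is in both). Under EGCG, 0 of 28 and 0 of 24 passed an unadjusted P under 0.05 in edgeR, and DESeq2 without the replicate term gave 0 too. With the replicate block in edgeR, 4 border markers were higher and 1 lower, and 3 activation genes were higher and 1 lower, where 3.21% of all genes passed, and none had an adjusted P under 0.1 (the smallest was 0.99). With the block in DESeq2 the counts were 3 higher and 2 lower and 1 higher and 1 lower, where 1.11% of all genes passed, again with 0 at an adjusted P under 0.1.

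The 5 border markers past the unadjusted threshold with the block were Clec12a, Timd4, Cd9 and Cd38, higher in EGCG, and Tgfbi, lower. Clec12a, an inhibitory C-type lectin, was at 56.7 and 83.5 CPM in the vehicle and EGCG libraries of replicate 1 and at 78.5 and 87.3 CPM in those of replicate 2, and its log2 difference was 0.35 ± 0.11 (SE). Timd4, a phosphatidylserine receptor of resident macrophages, had 38 and 84 counts in replicate 1 and 25 and 67 in replicate 2, a difference of 1.01 ± 0.32. Both genes were higher in EGCG within each replicate. Tgfbi, an extracellular matrix protein induced by TGFβ, was at 595 and 473 CPM in replicate 1 and 377 and 330 CPM in replicate 2 and differed by -0.26 ± 0.060. The differences of Cd9, a tetraspanin, and Cd38, an ectoenzyme that consumes NAD, were 0.19 ± 0.068 and 0.15 ± 0.057. All of these had adjusted P values of 0.99 in edgeR.

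The 4 activation genes were Chil3, Egr2 and Pparg, higher in EGCG, and Il4ra, lower. Il4ra, the interleukin-4 receptor α chain, was at 107.1 and 82.7 CPM in replicate 1 and at 223.6 and 203.2 CPM in replicate 2, a log2 difference of -0.25 ± 0.070 (SE) with the block. Egr2, a transcription factor induced by interleukin-4, was at 202.8 and 224.9 CPM and at 52.3 and 64.4 CPM, a difference of 0.22 ± 0.059. Pparg, a nuclear receptor for lipids, differed by 0.40 ± 0.15. The receptor gene and the factors therefore went opposite ways, all with adjusted P values of 0.99 in edgeR. Chil3, the chitinase-like protein Ym1 and also a gene of the monocyte list, had 26 counts with vehicle and 113 with EGCG in replicate 1 but 0 in both libraries of replicate 2, so its value rests on replicate 1 alone.

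Between replicates, 15 of the 28 border markers were higher in replicate 2 and 8 lower at an unadjusted P under 0.05 in edgeR, where 28.5% of all genes were higher and 27% lower. The median log2 difference was 0.42 beside -0.0027 over all genes. Those higher included Cd209f, Cd209g, Dab2, Ms4a6c, Ms4a4a, Cd38, Ms4a6b, Ccl8, Maf, Ednrb, Gas6, Clec4n, Igf1 and Slc40a1. Those lower were Hpgd, Fcna, Axl, Siglec1, Cd9, Colec12, Tgfbi and Nrp1. The 4 most abundant genes of the list thus split, Clec4n (dectin-2) and Ms4a6c being higher in replicate 2, by 0.58 ± 0.069 and 1.57 ± 0.063 on the log2 scale, and Cd9 and the scavenger receptor Colec12 lower, by 1.18 ± 0.10 and 1.00 ± 0.075. The 3 relatives of Ms4a7 in the list, Ms4a6b, Ms4a6c and Ms4a4a, were higher in replicate 2 as Ms4a7 was, by between 1.27 and 1.57. The transcription factor gene Maf was higher by 0.98 ± 0.061. Siglec1 (sialoadhesin), another receptor of border macrophages, was lower by 1.25 ± 0.050. Cd209f and Cd209g had 0 counts in replicate 1 and between 6 and 15 in replicate 2. Their mean CPM in replicate 2 was 3.29-fold and 1.47-fold the floor of 3 counts per library, a value that leaves out the counting error of these means.

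Of the 24 activation genes, 7 were higher in replicate 2 and 10 lower, beside the same 28.5% and 27% of all genes, with a median log2 difference of -0.27. Higher were Il10, Vegfa, Il4ra, Marco, Stat6, Il13ra1 and Tgfb1, and lower were Chil3, Arg1, Cdh1, Egr2, Il1rn, Klf4, Ccl22, Cd200r1, Ppargc1b and Pparg. The interleukin-4 receptor chains Il4ra and Il13ra1 and their signal transducer Stat6 were higher in replicate 2, by 1.17 ± 0.12, 0.31 ± 0.055 and 0.39 ± 0.054 on the log2 scale. Arg1 and Chil3, the classical products of this state, were lower. Arg1 (arginase 1) had 168 and 25 counts in the vehicle and EGCG libraries of replicate 1 and 1 and 7 in those of replicate 2. Chil3 had 0 counts in replicate 2, and its mean CPM in replicate 1 was 31.7-fold the floor, without the counting error of that mean. Retnla, the third classical product, had at most 1 count in any library. Of Marco and Msr1, the most abundant scavenger receptors of the list, Marco was higher by 0.98 ± 0.097. Msr1 did not pass the threshold (-0.14 ± 0.066, edgeR unadjusted P of 0.071). Il1rn, the interleukin-1 receptor antagonist, was lower by 1.61 ± 0.15. Clec7a (dectin-1), the most abundant gene of the list at a mean of 587 RPKM, is annotated as a polymorphic pseudogene in the files and was tested only when all gene classes were kept, where it was lower in replicate 2 by 1.13 ± 0.12 and differed by 0.04 ± 0.59 between EGCG and vehicle.

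**Figure D5:**
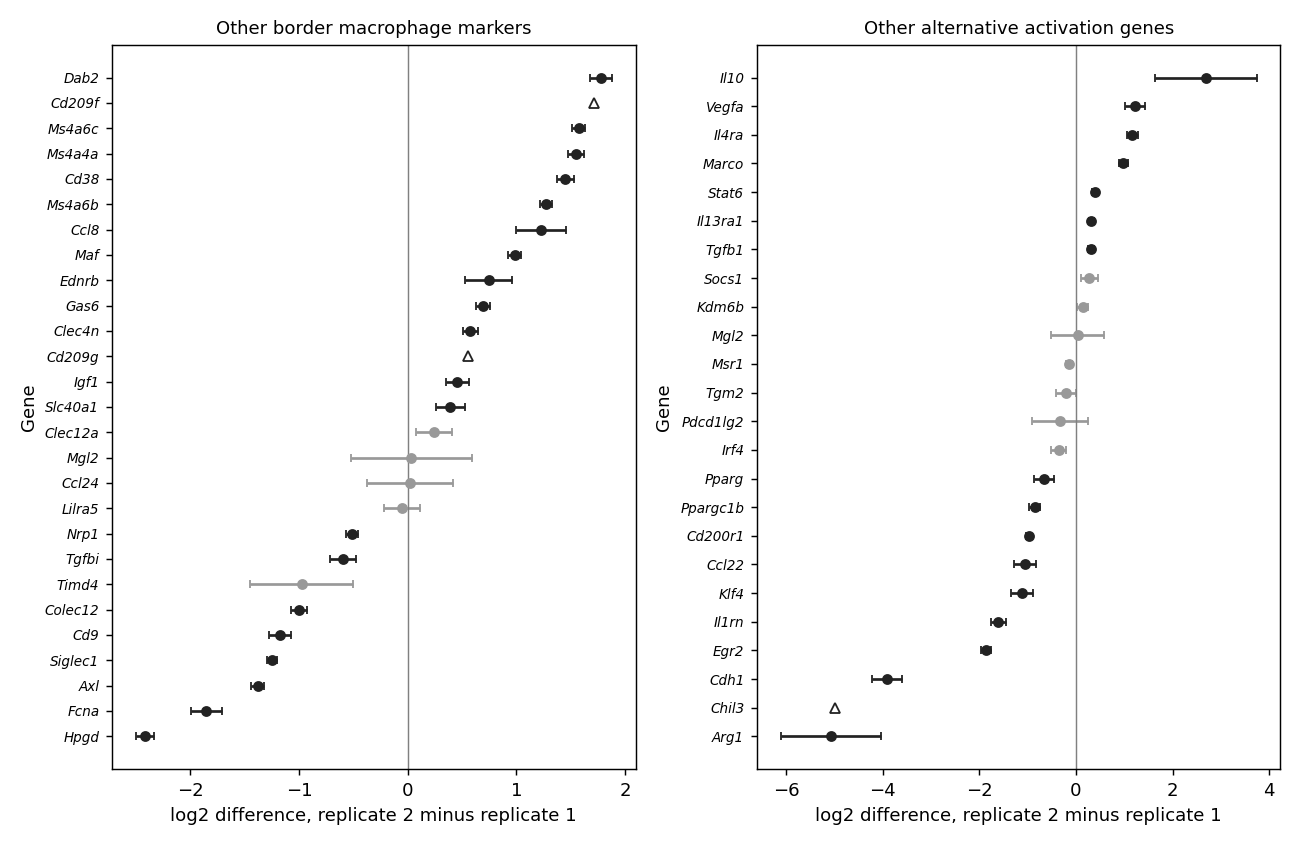
Replicate 2 minus replicate 1, as log2 difference, of tested border macrophage markers (left) and alternative activation genes (right) other than the 10 genes; bars are the SE, black points passed and grey points did not pass an unadjusted P under 0.05 in edgeR, and open triangles are lower bounds on the size of the difference for genes with 0 counts in 1 replicate. Genes of both lists lie on both sides of 0.

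Scaling to the pan-macrophage genes, which leans on Ctss, gave 16 higher and 8 lower among the border markers. It gave 9 higher and 10 lower among the activation genes, while over all genes it moved the shares to 43.3% higher and 16.8% lower.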

How the data were processed

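Paired-end reads of directional poly-A libraries were filtered and aligned with HISAT2 to GRCm38.p6 by the authors, who deposited raw counts per gene, 1 table per replicate that held both treatments. The counting program, its strand setting and its handling of reads with several matches are not given in the sources used here. Tables were joined on the Ensembl identifier, without the loci assembled de novo for each table (697 and 329). Treatment came from the labels and column names, and the replicate number of a table from the metadata sheet published with the study. CPM and RPKM were computed from these counts and the deposited gene lengths, on TMM-scaled totals of protein-coding genes, with a prior count of 2 for the log2 differences within a replicate or treatment. Of counts, between 97.97% and 98.07% fell on protein-coding genes.

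Genes with at least 10 counts in all were tested with edgeR 4.0.16 (quasi-likelihood F test, two-sided, Benjamini-Hochberg over all 13811 genes) in R 4.3.3, with treatment, or the replicate number, as the only term. DESeq2 1.42.0, the replicate block, other scalings, filters and gene classes and the omission of each library were alternatives. Calls were made at an unadjusted P under 0.05 and an adjusted P under 0.1, and intervals are 95% intervals from the t distribution of the fit (normal for DESeq2). Permuting 2 libraries against 2 gives a two-sided P of 0.333 at best, and the P values therefore depend on the models. Near-identical sequence was searched by BLAST at 90% identity over 200 bases.

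The 10 genes and all gene lists were chosen with earlier results of these data known. All 10 genes are described. Of the border macrophage and activation lists, the 4 highest genes per length and those past the unadjusted threshold are named, and of the cell type lists the highest genes, except for some that are not reported here. Gp9, Gp1ba, Gp6, Itga2b, Treml1, Pecam1, Prox1, Kdr, Flt4, Vcan, Pdgfra, Mir511, Mgl2, Retnla, Siglech and Slc2a5 were named after their values were seen.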

Additional observations from a re-analysis of the deposited data

How the results depend on the processing

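The count of the 10 marker genes past an unadjusted P under 0.05 between EGCG and vehicle was 0 in edgeR and stayed 0 under every alternative with a test except DESeq2 with the replicate block, which gave 1. For the companion border macrophage and activation genes it was 0, and became 9 with the replicate block in edgeR, 7 with the block in DESeq2, 9 with the block and the newer edgeR dispersion method (chosen after seeing the data), and 0 to 1 when single libraries were left out, the 1 call arising without replicate 2 of either group. Over all genes the block moved the count from 16 to 444, and DESeq2 from 24 to 153. Same-numbered libraries shared a table, and the difference between replicates correlated between vehicle and EGCG (r = 0.64 across 13811 genes, not independent of one another), whereas the labels give only the number.

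The sign of small EGCG differences was not stable, and none of the following log2 values that have a test had a P under 0.05. Mrc1 turned to -0.0007017 with upper-quartile factors, -0.021 with total counts, -0.049 with pan-macrophage scaling and -0.11 within replicate 2, and ran from -0.31 to 0.41 when single libraries were left out. Stab1 turned to -0.019 with pan-macrophage scaling and ran from -0.59 to 0.64 without single libraries. Within replicate 2, Pf4 was at -0.13, Ms4a7 at -0.015 and Folr2 at -0.0047. Without single libraries Pf4 ran from -1.20 to 1.19, Ms4a7 from -0.33 to 0.84, Clec10a from -0.16 to 0.52 and F13a1 from -2.67 to 0.75. These omissions leave treatment and replicate unbalanced, and the lone library is assumed to vary like the other group. The cause of the other changes was not tested.

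Between replicates, Mrc1, Ms4a7, Stab1, Pf4 and F13a1 kept their direction and their side of the threshold under every alternative in which they were tested. Folr2 turned to 0.19 within vehicle and ran from -0.76 to 0.19 without single libraries, passing the threshold without Vehicle replicate 1. Lyve1 passed it at -1.73 without EGCG replicate 2, and Clec10a lost it in 6 of 14 settings (0.38 to 0.56). Differences within 1 replicate or 1 treatment have no test and give no counts. At 0 to 69 counts per library, Cd163, Lyve1, F13a1, Cbr2 and Folr2 are limited by depth.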

Other observations

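Some genes of the cell type lists stood apart in 1 replicate or 1 library, and they are given as values chosen after they were seen. Pecam1, which encodes the adhesion molecule CD31 of endothelium and of some macrophages, had 2 and 3 counts in the vehicle and EGCG libraries of replicate 1 and 580 and 741 in those of replicate 2. Cdh5, the endothelial cadherin, had 79 and 26 counts in replicate 1 and 34 and 13 in replicate 2. Fcrls, a microglial Fc receptor-like gene, was at 94.4 and 99.7 CPM in replicate 1 and 732 and 629 CPM in replicate 2, and Olfml3, another microglial gene, at 147 and 134 CPM in replicate 1 and 23.1 and 22.4 CPM in replicate 2. Sparc, which is also made by stromal cells, was at 59.3 CPM with vehicle and 3.46 with EGCG in replicate 1 and at 28.9 and 32.0 CPM in replicate 2, the same library standing low as for the fibroblast and mural list.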
